A study of Mus musculus with 12 samples.

Results

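The 34 genes described here build cholesterol and fatty acids, regulate that synthesis, join fatty acids into membrane and storage lipids, or export cholesterol from cells. They were chosen by gene symbol from 20774 genes listed in lung RNA-seq tables of mice given paraquat or saline, a choice made with earlier results of these data known. By role they comprise 6 enzymes of the mevalonate arm, 10 enzymes from squalene to cholesterol, 3 regulators of the SREBP system, 4 enzymes of fatty acid synthesis, 6 desaturases and elongases, 3 enzymes of glycerolipid and phospholipid assembly, and 2 cholesterol efflux transporters. The study profiled whole lung of wild type C57BL/6J mice, labelled as 8 weeks of age, in 4 groups of 3 libraries each. PQ 4w and PQ 1w mice had received paraquat, a redox-cycling herbicide that injures the lung, in saline as 1 intratracheal dose, with 4w or 1w as the time on the label. The control 4w and control 1w mice had received saline. The dose is not stated in the labels, which also do not say whether the 3 libraries of a group came from separate animals, so p-values below measure the spread between these libraries.

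Cells make cholesterol from acetyl-CoA through mevalonate and isoprenoids to squalene, which is then closed into a ring system and trimmed. SREBP-2, the product of Srebf2, is a transcription factor that switches on most of these enzymes when membrane sterol is low, and Insig proteins hold it in the endoplasmic reticulum when sterol is plentiful. SREBP-1, from Srebf1, acts mainly on fatty acid synthesis. In the lung, alveolar type 2 cells use fatty acid synthesis for surfactant phospholipid, and macrophages export excess cholesterol through ABCA1 and ABCG1, whose genes respond to the oxysterol receptors called LXR.

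Library totals ranged between 17220978 and 18559809 expected counts, and all 34 genes were among the 15921 that passed the filter on low counts. Levels are given as CPM, the expected count scaled to a library total of 1000000, when 1 gene is compared between groups. Group effects are log2 ratios from edgeR's quasi-likelihood test with an approximate standard error (SE), and a gene was called when its Benjamini-Hochberg adjusted p over the 15921 genes was under 0.05. On the principal component that held 51.1% of the variance, the PQ 1w libraries lay at 68.9 to 73.8 while the remaining 9 lay between -40.6 and -6.2. PQ 4w replicate 3 stood apart from its group, at -4.9 on the next component, against 42.0 and 40.3 for PQ 4w replicates 1 and 2. Calls of the 34 genes that change without that library are given both ways below. The 12 genes Idi1, Fdft1, Lss, Cyp51, Hsd17b7, Sc5d, Srebf1, Scd1, Scd2, Elovl1, Elovl6 and Fads2 had expected counts that were not whole numbers in at least 1 library, so reads were split with other genes and their values are less certain.

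In the 6 control libraries the genes spanned a wide range of level per length. Scd1, a stearoyl-CoA desaturase that makes monounsaturated fatty acids, had the highest level at 327.5 ± 84.56 FPKM (SD, n = 6), a unit that divides by transcript length. Elovl1, an elongase of very long chains, followed at 159.16 ± 11.71 FPKM, and Scd2, another stearoyl-CoA desaturase, at 127.0 ± 18.74 FPKM. Lpcat1, which makes the disaturated phosphatidylcholine of surfactant, had 78.64 ± 14.46 FPKM and Fasn, fatty acid synthase, 50.53 ± 14.42 FPKM. The sterol enzymes were lower, between 35.99 ± 4.24 FPKM for Pmvk and 2.82 ± 0.43 FPKM for Hsd17b7. Elovl6, which extends palmitate, had the lowest level at 1.40 ± 0.37 FPKM. Single neighbours in this order often lay within each other's spread, as did Fasn and Acly (48.49 ± 8.38 FPKM). Together the 34 genes took 0.4075% to 0.4705% of counts in PQ 4w, against 0.3895% to 0.4502% in control 4w, and 0.5849% to 0.6744% in PQ 1w, against 0.5375% to 0.5849% in control 1w. The groups overlapped at 4w, and at 1w the lowest PQ library equalled the highest control library to 4 digits.

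At 1w after paraquat, 10 of the 16 sterol enzymes rose and none fell, while Insig1, Srebf2 and the fatty acid synthesis genes Acly and Acaca fell. Abca1 had the largest increase of the 34 genes. In all, 16 of the 34 genes (47.1%) were called in PQ 1w against control 1w, a share near the 48.8% of all genes tested, so the share of changed genes is not a result about these genes. By direction, 12 of 34 (35.3%) were higher, beside 25.9% of all genes tested, and 4 (11.8%) were lower, beside 22.9%. The median log2 effect was 0.18 over the 34 genes and 0.34 over the 16 sterol enzymes, beside 0.005 over all genes tested. The PQ 1w libraries lay wholly above the control 1w libraries for 15 genes, wholly below for 4, and overlapped them for 15. That count was not made over all genes tested, so it is not a result about these genes.

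**Figure D1:**
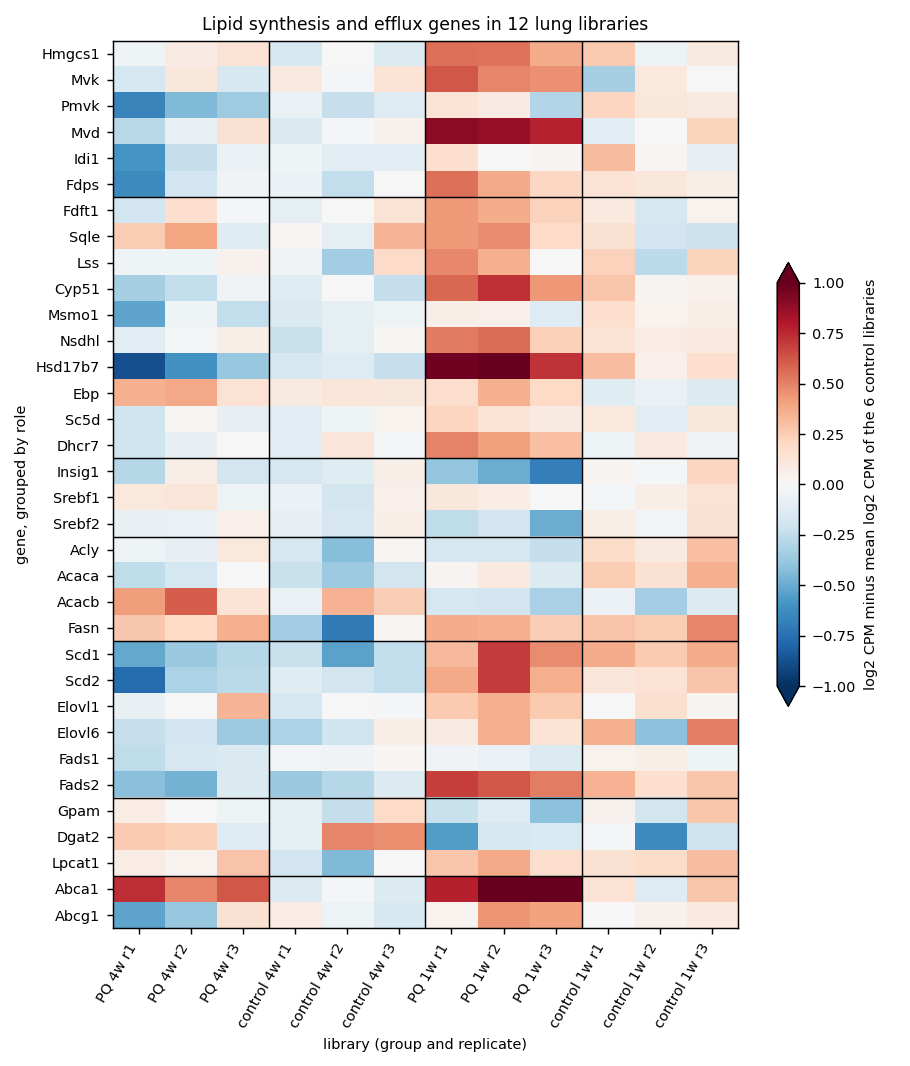
Level of each of the 34 genes (down the page, grouped by role) in each of the 12 libraries (across), coloured by log2 CPM minus the mean log2 CPM of the 6 control libraries (no unit; red higher, blue lower, capped at 1 in either direction). Mvd and Hsd17b7 were red in all 3 PQ 1w libraries and Abca1 was red in all 6 PQ libraries, while Insig1 was blue in the 3 PQ 1w libraries.

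In the mevalonate arm, 3 of 6 genes rose at 1w. Mvd (gene ID 192156, chr8:122433596-122443422, GRCm38), the decarboxylase that makes isopentenyl diphosphate, measured 25.8, 25.3 and 23.6 CPM in PQ 1w, against 12.8, 13.8 and 16.1 CPM in control 1w. The groups did not overlap, and the log2 effect was 0.80 ± 0.12 (1.74-fold, adjusted p = 0.000208). Mvk (gene ID 17855, chr5:114444264-114460591), mevalonate kinase, measured 26.5, 24.0 and 23.6 CPM in PQ 1w, against 13.7, 18.4 and 17.2 CPM in control 1w. Every PQ 1w library was above every control 1w library, with a log2 effect of 0.58 ± 0.13 (1.49-fold, adjusted p = 0.00254). Hmgcs1 (gene ID 208715), the synthase that commits acetyl units to the pathway, averaged 124 ± 8.66 CPM in PQ 1w and 95.2 ± 10.1 CPM in control 1w (SD, n = 3 each). Its effect was 0.38 ± 0.09 (adjusted p = 0.0031). The other 3 genes were not called: the farnesyl diphosphate synthase Fdps had an effect of 0.27 ± 0.14 (adjusted p = 0.128), the kinase Pmvk -0.16 ± 0.12 (adjusted p = 0.266) and the isomerase Idi1 -0.04 ± 0.13 (adjusted p = 0.817).

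From squalene to cholesterol, 7 of 10 genes rose at 1w. Hsd17b7 (gene ID 15490, chr1:169949535-169969242), a ketoreductase that helps remove sterol methyl groups, measured 25.4, 32.5 and 21.4 CPM in PQ 1w, against 16.0, 13.4 and 14.6 CPM in control 1w. All 3 PQ 1w libraries were higher, with replicate 2 the highest, and the log2 effect was 0.84 ± 0.16 (1.79-fold, adjusted p = 0.000826). Cyp51 (gene ID 13121, chr5:4080674-4104697), lanosterol demethylase, measured 54.0, 60.3 and 49.2 CPM in PQ 1w, against 44.0, 37.0 and 37.5 CPM in control 1w. The groups did not overlap, and the effect was 0.46 ± 0.10 (1.37-fold, adjusted p = 0.00308). Hsd17b7 and Cyp51 are among the genes whose reads were split with others. Ebp, a sterol isomerase, rose by 0.34 ± 0.08 and Dhcr7, the reductase that finishes cholesterol, by 0.39 ± 0.09 (adjusted p = 0.00248 and 0.0045). Smaller margins held for Fdft1, squalene synthase (0.34 ± 0.11, adjusted p = 0.0186), Nsdhl, a sterol dehydrogenase (0.34 ± 0.10, adjusted p = 0.0141), and Sqle, squalene epoxidase (0.43 ± 0.16, adjusted p = 0.0353). Lss, which closes the ring system, had an effect of 0.21 ± 0.16, the desaturase Sc5d 0.10 ± 0.08 and the methylsterol oxidase Msmo1 -0.11 ± 0.11, and none of these 3 was called. Fdft1 lost its call without PQ 1w replicate 1 or 2 or control 1w replicate 2 (adjusted p = 0.0515 to 0.0753), and Nsdhl without PQ 1w replicate 1 or 2 (0.0621 and 0.0622). Sqle lost it without PQ 1w replicate 1 or 2 or control 1w replicate 2 or 3 (adjusted p = 0.0946 to 0.106).

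The promoter sequences of genes that carry these changes were read from RefSeq (GRCm38.p6) as the 250 bases before a transcript start, on the gene's own strand. For Abca1 and Hsd17b7 that start lies inside the gene's position, so only the 157 and 213 bases that lie before the gene are printed. Hmgcs1 lies at chr13:119690101-119690350 (plus strand), Hsd17b7 at chr1:169969243-169969455 (minus), Mvd at chr8:122443423-122443672 (minus), Insig1 at chr5:28071162-28071411 (plus) and Abca1 at chr4:53159989-53160145 (minus). Hmgcs1 is shown because it holds the sterol regulatory element that was searched and Abca1 because it was called. Hsd17b7, Mvd and Insig1 were chosen after their values were seen, as genes with large effects in either direction. Capitals mark matches to the sterol element TCACNCCAC, the NF-Y box CCAAT, which reads ATTGG on the other strand, and the E-box CACGTG.
Hmgcs1: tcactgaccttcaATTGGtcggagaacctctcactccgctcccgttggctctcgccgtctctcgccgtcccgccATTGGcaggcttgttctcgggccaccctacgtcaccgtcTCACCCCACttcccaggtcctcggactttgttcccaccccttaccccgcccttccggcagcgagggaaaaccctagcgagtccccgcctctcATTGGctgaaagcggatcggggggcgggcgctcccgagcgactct
Hsd17b7: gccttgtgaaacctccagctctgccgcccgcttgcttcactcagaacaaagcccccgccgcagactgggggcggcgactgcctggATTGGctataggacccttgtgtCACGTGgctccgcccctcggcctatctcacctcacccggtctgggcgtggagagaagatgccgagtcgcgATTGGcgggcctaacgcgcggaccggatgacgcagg
Mvd: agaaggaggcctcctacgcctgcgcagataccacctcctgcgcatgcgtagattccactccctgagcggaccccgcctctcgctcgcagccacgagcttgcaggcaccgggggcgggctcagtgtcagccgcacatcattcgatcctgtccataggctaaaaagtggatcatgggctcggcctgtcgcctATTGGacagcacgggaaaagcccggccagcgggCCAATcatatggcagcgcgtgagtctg
Insig1: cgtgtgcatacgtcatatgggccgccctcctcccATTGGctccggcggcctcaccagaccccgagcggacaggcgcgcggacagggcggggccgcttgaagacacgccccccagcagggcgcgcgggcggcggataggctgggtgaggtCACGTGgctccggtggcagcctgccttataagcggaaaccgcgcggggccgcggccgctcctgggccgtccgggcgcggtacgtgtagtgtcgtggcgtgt
Abca1: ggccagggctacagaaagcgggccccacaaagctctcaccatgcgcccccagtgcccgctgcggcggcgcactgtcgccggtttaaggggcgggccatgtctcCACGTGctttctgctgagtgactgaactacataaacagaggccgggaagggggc
Motifs were counted on both strands in windows of 300 bases, 250 before and 50 after the start, which RefSeq gave for 26 of the 34 genes and for 12520 of the genes tested. CCAAT was present in 21 of 26 (80.8%), beside 42.1% of the genes tested, and in 13 of the 13 sterol enzymes with a window. Among those enzymes Pmvk, Idi1, Lss, Msmo1 and Sc5d were not called at 1w. CCAAT was also present in Insig1, Srebf2 and Acly, which fell at 1w, and not in Acaca, which fell as well. The sterol element TCACNCCAC was present in 1 of 26 (3.85%), beside 1.41%. Only these letters were searched, so genes without a match may hold sterol elements spelled otherwise. That match, TCACCCCAC in Hmgcs1, began 137 bases before the start and overlapped no CCAAT box, the nearest being 34 bases away. CACGTG was present in 5 of 26 (19.2%: Hsd17b7, Sc5d, Dhcr7, Insig1 and Abca1), beside 10.9%, and the GC box GGGCGG in 21 of 26 (80.8%), beside 63.8%. The LXR element DR4, a direct repeat of AGGTCA with 4 bases between the copies, was searched as an exact match and was present in 0 of 26 and in 0 of 12520 genes tested, so this search says nothing of Abca1 or any other gene. These matches are letters in the windows and not measured binding sites.

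Of the 3 regulators, 2 fell at 1w. Insig1 (gene ID 231070, chr5:28071412-28078662), which retains SREBP in the endoplasmic reticulum, measured 56.5, 52.4 and 46.0 CPM in PQ 1w, against 75.5, 73.3 and 85.8 CPM in control 1w. The groups were separate, and the log2 effect was -0.61 ± 0.11 (1.53-fold lower, adjusted p = 0.000907). Srebf2 (gene ID 20788, chr15:82147269-82205379), which encodes SREBP-2, measured 144, 150 and 122 CPM in PQ 1w, against 180, 169 and 191 CPM in control 1w. All 3 PQ 1w libraries were lower, and the effect was -0.38 ± 0.09 (1.30-fold lower, adjusted p = 0.00437). Srebf1 (gene ID 20787), which encodes SREBP-1, measured 123, 120 and 114 CPM in PQ 1w, against 112, 119 and 126 CPM in control 1w. Its groups overlapped, and the effect of -0.01 ± 0.08 was not called (adjusted p = 0.899).

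In fatty acid synthesis 2 of 4 genes fell at 1w and none rose, beside 22.9% of all genes tested that were lower. Acly (gene ID 104112), ATP citrate lyase, which supplies cytosolic acetyl-CoA to both routes, measured 191, 190 and 182 CPM in PQ 1w, against 243, 227 and 263 CPM in control 1w. The groups did not overlap, with an effect of -0.39 ± 0.10 (1.31-fold lower, adjusted p = 0.00785). Acaca, the acetyl-CoA carboxylase of fatty acid synthesis, averaged 84.9 ± 6.90 CPM in PQ 1w and 101 ± 7.13 CPM in control 1w (SD, n = 3 each). Its effect of -0.27 ± 0.09 was called at an adjusted p of 0.0276, and was lost without PQ 1w replicate 3, control 1w replicate 1 or control 1w replicate 3 (adjusted p = 0.0701 to 0.137). Fasn had an effect of -0.03 ± 0.15 and Acacb, the carboxylase linked to control of fatty acid oxidation, -0.07 ± 0.13, and neither was called. Among the 6 desaturases and elongases, Fads2 alone was called at 1w. Fads2 (gene ID 56473), a desaturase of polyunsaturated fatty acids, measured 58.7, 56.0 and 51.7 CPM in PQ 1w, against 46.3, 40.7 and 44.0 CPM in control 1w. The groups did not overlap (log2 effect 0.33 ± 0.09, adjusted p = 0.0106), although the call was lost without PQ 1w replicate 1 (adjusted p = 0.0531). Scd2 measured 902, 1125 and 895 CPM in PQ 1w, against 754, 767 and 846 CPM in control 1w. Its groups did not overlap either, but the effect of 0.29 ± 0.13 missed the threshold (adjusted p = 0.0818). Elovl1 had an effect of 0.22 ± 0.10 (adjusted p = 0.0914), which was called without PQ 4w replicate 3 (adjusted p = 0.0225). None of the 3 genes of glycerolipid and phospholipid assembly was called, with effects of -0.32 ± 0.13 for the acyltransferase Gpam (adjusted p = 0.0581), -0.03 ± 0.19 for the triglyceride enzyme Dgat2 and 0.05 ± 0.11 for Lpcat1.

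Of the efflux transporters, Abca1 (gene ID 11303, chr4:53030789-53159988), which loads cholesterol onto apolipoproteins, measured 127, 161 and 166 CPM in PQ 1w, against 81.8, 67.5 and 89.6 CPM in control 1w. The groups were far apart, and the log2 effect was 0.91 ± 0.11 (1.89-fold, adjusted p = 2.93e-05). Abcg1 (gene ID 11307, chr17:31057694-31117984), which passes cholesterol to high-density lipoprotein, measured 79.3, 105 and 102 CPM in PQ 1w, against 77.2, 79.8 and 82.6 CPM in control 1w. PQ 1w replicate 1 lay among the controls, and the effect of 0.25 ± 0.15 was not called (adjusted p = 0.197), although without PQ 4w replicate 3 it was (0.26, adjusted p = 0.0483).

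Another 108 lipid genes in 6 lists surround these pathways, and 103 of them were tested. At 1w, 27 were higher (26.2%, beside 25.9% of all genes tested) and 20 were lower (19.4%, beside 22.9%), shares near the background. The list of cholesterol uptake, transport and esterification had 9 higher and 1 lower of 18 tested, with a median log2 effect of 0.31. Within it, Ch25h, which makes an oxysterol, lay at 20.08 to 24.47 CPM in PQ 1w, against 5.151 to 5.715 CPM in control 1w (3.97-fold, adjusted p = 2.35e-07). Lipa, the lysosomal lipase that frees cholesterol from esters, lay at 144.4 to 168.4 CPM in PQ 1w, against 76.42 to 86.47 CPM in control 1w (1.89-fold, adjusted p = 4.7e-06). Both genes were separate between groups. In the list of SREBP processing and LXR genes, 1 was higher and 3 were lower of 11. Nr1h3, which encodes an LXR, fell by 0.68 ± 0.08 on the log2 scale (adjusted p = 3.81e-05), and Mylip, a ubiquitin ligase that degrades the LDL receptor, rose by 0.50 ± 0.10 (adjusted p = 0.00109). The list of other sterol synthesis enzymes, not all of which make sterols, gave 2 higher and 2 lower of 9. In it Lbr, a sterol reductase of the nuclear envelope, had -0.36 ± 0.08. Ggps1, which makes the non-sterol product geranylgeranyl diphosphate, had -0.38 ± 0.08. Other fatty acid synthesis and modification genes gave 7 higher and 6 lower of 23. In that list Slc25a1, the mitochondrial citrate carrier, rose by 0.59 ± 0.06 (adjusted p = 9.98e-06) and Acss1, a mitochondrial acetyl-CoA synthetase, fell by 1.27 ± 0.12 (adjusted p = 5.58e-06). Other glycerolipid and phospholipid genes gave 4 higher and 7 lower of 24, with Lpcat3, an acyltransferase, 1.60-fold higher and Chka, choline kinase, 1.72-fold lower. Fatty acid oxidation genes gave 4 higher and 1 lower of 18, with Cpt2, a carnitine acyltransferase, 1.40-fold higher and Ppara, a receptor for fatty acids, 1.80-fold lower.

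**Figure D2:**
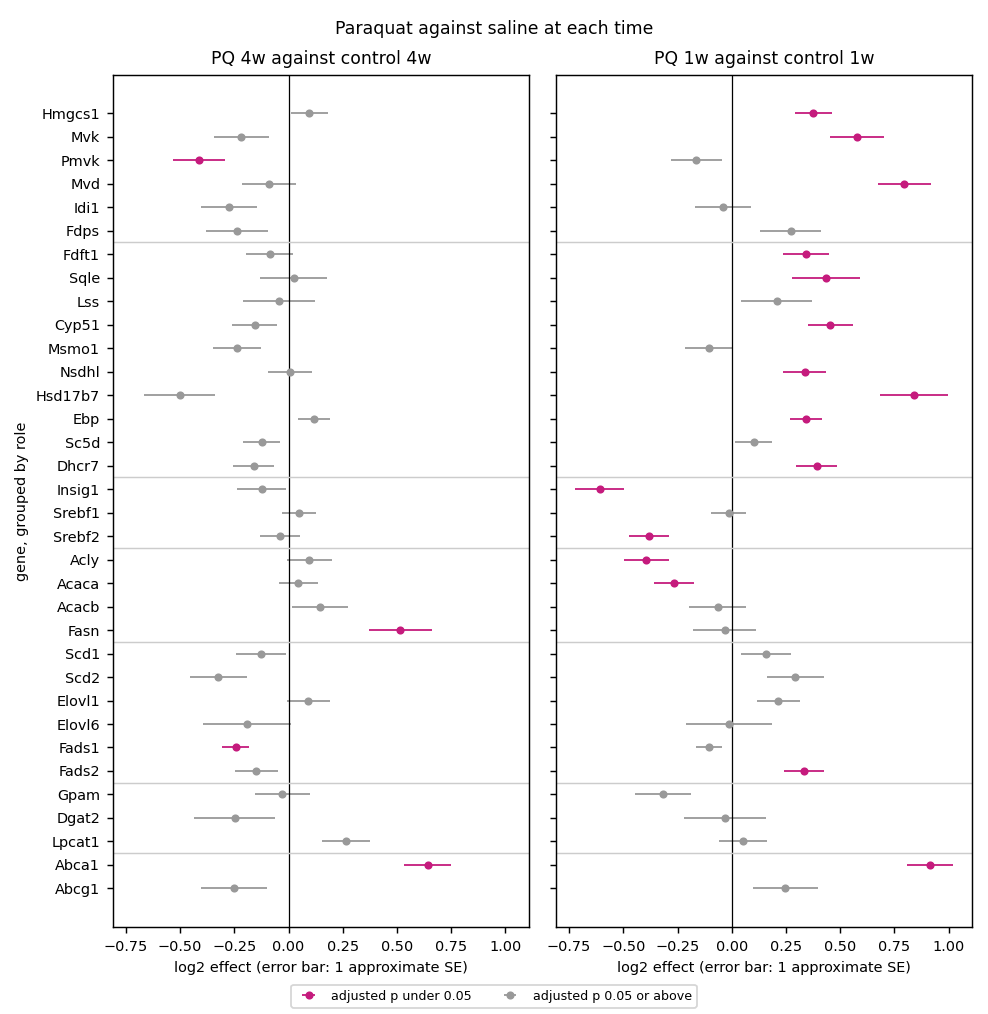
Log2 effect (no unit) of paraquat against saline for each gene (down the page, grouped by role) at 4w (left) and 1w (right), with bars of 1 approximate SE and pink for an adjusted p under 0.05. At 1w, 12 genes were called higher and 4 lower, and at 4w 2 were called in each direction, with Abca1 called at both times.

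Markers of several cell types moved at 1w with these genes. Of all genes tested, 25.9% were called higher and 22.9% lower at 1w, the shares to set beside the marker counts below. The 18 markers of dividing cells were all higher, and their summed level was 1011 to 1148 CPM in PQ 1w, against 266.2 to 310 CPM in control 1w. Of 14 markers of monocyte-derived macrophages 13 were higher, with sums of 3918 to 4439 CPM in PQ 1w, against 973.9 to 1066 CPM in control 1w; this list shares Apoe with the cholesterol transport list. Alveolar macrophage markers summed to 1738 to 2345 CPM in PQ 1w, against 741.9 to 775.8 CPM in control 1w, with 7 higher and 2 lower of 14. Of 14 markers of alveolar type 2 epithelium 11 were lower and 1 was higher, with sums of 19230 to 21170 CPM in PQ 1w, against 30350 to 36910 CPM in control 1w. Markers of adipocytes, which also make fatty acids, summed to 67.42 to 134.4 CPM in PQ 1w, against 120.7 to 197.8 CPM in control 1w, overlapping, with 1 higher and 1 lower of 10 tested and with Lep and Ucp1 below 1 CPM in every library. The part of these cell types in the lipid gene results was not tested. In bulk lung, fewer cells of a type and less RNA per cell cannot be told apart.

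**Figure D3:**
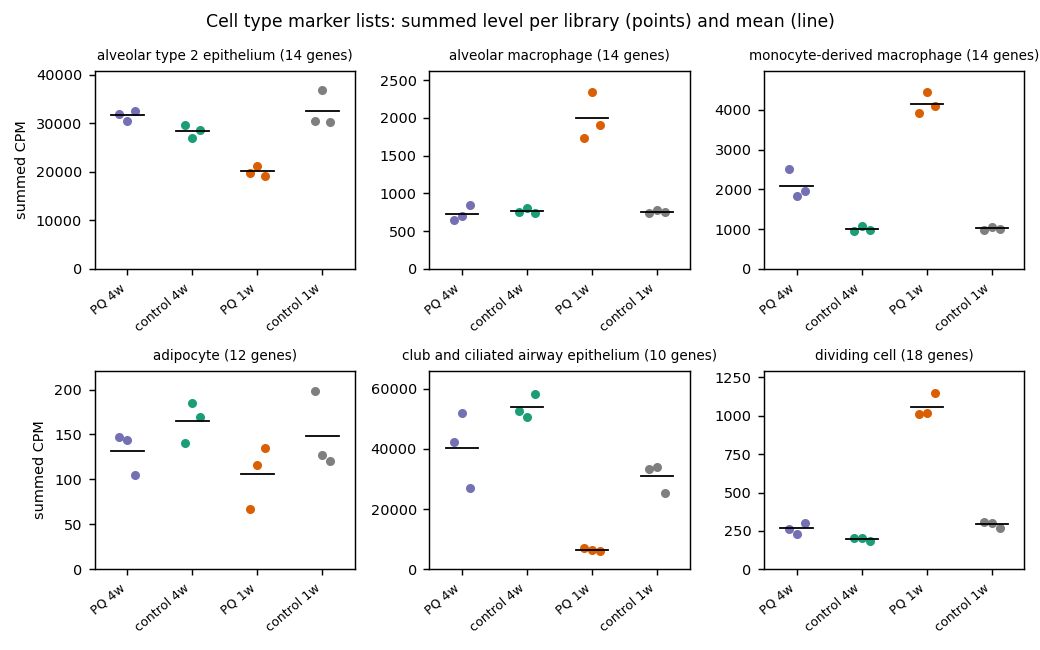
Summed level in CPM of 6 marker lists in each library (points) with the group mean (line), for the groups PQ 4w, control 4w, PQ 1w and control 1w. Dividing cell markers summed to 1011 to 1148 CPM in PQ 1w, against 266.2 to 310 CPM in control 1w, and type 2 epithelium markers to 19230 to 21170 CPM, against 30350 to 36910 CPM.

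At 4w few of the genes differed between paraquat and saline lungs. Abca1 and Fasn were higher and Pmvk and Fads1 were lower, so 4 of 34 (11.8%) were called, beside 12.1% of all genes tested, a share again near the background. The 2 higher genes (5.88%) compare with 5.75% of all genes, and the 2 lower genes (5.88%) with 6.39%. The median log2 effect was -0.11 over the 34 genes and 0.004 over all genes tested. The libraries of the groups overlapped for 26 of the 34 genes, a count that was again not made over all genes tested. When library totals replaced the TMM scaling factors, 1370 of the 2001 genes called at 4w were higher, against 915 of 1932 with TMM, and the 34 genes then gave 2 higher and 0 lower.

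Abca1 at 4w measured 124, 104 and 114 CPM in PQ 4w, against 67.4, 73.2 and 67.4 CPM in control 4w. All 3 PQ 4w libraries were higher, the effect was 0.64 ± 0.11 (1.56-fold, adjusted p = 0.00405), and the call was kept in all 21 alternative settings. Fasn (gene ID 14104, chr11:120805958-120825166) measured 592, 564 and 629 CPM in PQ 4w, against 386, 301 and 499 CPM in control 4w. Its mean was 595 CPM in PQ 4w and 395 CPM in control 4w, beside 615 CPM in PQ 1w and 625 CPM in control 1w. The 4w groups did not overlap and the control 4w libraries varied widely (effect 0.52 ± 0.15, adjusted p = 0.0397). That call was lost without any 1 of 9 libraries, which were all but control 1w replicates 2 and 3 and control 4w replicate 3 (adjusted p = 0.0524 to 0.124). Without control 4w replicate 2 the effect was 0.35 (adjusted p = 0.0906). Pmvk (gene ID 68603), phosphomevalonate kinase, measured 26.7, 31.3 and 33.3 CPM in PQ 4w, against 40.5, 36.2 and 38.9 CPM in control 4w. All PQ 4w libraries were lower (-0.41 ± 0.12, adjusted p = 0.0428), but the call was lost in 17 settings, among them every left-out library other than PQ 1w replicates 1 and 3 and PQ 4w replicate 3 (adjusted p = 0.0522 to 0.166), and with RLE scaling (0.0554). Fads1 (gene ID 76267), a desaturase of polyunsaturated fatty acids, measured 132, 140 and 142 CPM in PQ 4w, against 154, 153 and 158 CPM in control 4w. Its effect was small and the groups were separate (-0.24 ± 0.06, adjusted p = 0.0235), and the call was lost without PQ 4w replicate 1 or any control 4w replicate (adjusted p = 0.0552 to 0.103).

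Of the sterol enzymes called at 1w, none was called at 4w. Mvk measured 15.2, 18.6 and 15.3 CPM in PQ 4w, against 18.4, 17.1 and 18.9 CPM in control 4w. Mvd measured 11.4, 13.1 and 15.3 CPM in PQ 4w, against 12.5, 13.6 and 14.3 CPM in control 4w. Cyp51 measured 28.8, 30.6 and 35.5 CPM in PQ 4w, against 33.4, 36.4 and 30.8 CPM in control 4w. The groups overlapped for these 3 genes. Hsd17b7 measured 7.04, 8.53 and 9.97 CPM in PQ 4w, against 11.5, 11.9 and 11.02 CPM in control 4w. All PQ 4w libraries were lower, the effect was -0.50 ± 0.16 (adjusted p = 0.0676), and without PQ 4w replicate 3 it was -0.63 and was called (adjusted p = 0.0358). Without PQ 1w replicate 2 it was called as well (adjusted p = 0.0421). Scd2 measured 408, 557 and 576 CPM in PQ 4w, against 640, 612 and 587 CPM in control 4w, separate but not called (-0.32 ± 0.13, adjusted p = 0.128). Insig1 measured 60.6, 77.5 and 65.0 CPM in PQ 4w, against 65.9, 68.0 and 77.0 CPM in control 4w. Srebf2 measured 163, 164 and 178 CPM in PQ 4w, against 162, 153 and 179 CPM in control 4w. Srebf1 measured 122, 123 and 110 CPM in PQ 4w, against 109, 100 and 118 CPM in control 4w. The 3 regulators overlapped between groups and had adjusted p between 0.52 and 0.816. Abcg1 measured 53.7, 59.3 and 85.7 CPM in PQ 4w, against 81.2, 74.5 and 69.2 CPM in control 4w. PQ 4w replicate 3 was the highest of the 6 and replicates 1 and 2 the lowest, with an effect of -0.25 ± 0.15 (adjusted p = 0.318) and of -0.48 without replicate 3 (adjusted p = 0.0188). Without PQ 4w replicate 3, 5 of the 34 genes were called, 1 higher and 4 lower. Of 16090 genes tested, 1061 were then higher and 1043 lower. Without PQ 4w replicate 1 or control 4w replicate 1 or 2 a single gene was called, beside 994, 641 and 1096 of all genes. Without control 1w replicate 1 or control 4w replicate 3 there were 2, beside 1676 and 1183. With every library 1932 of all genes were called.

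**Figure D4:**
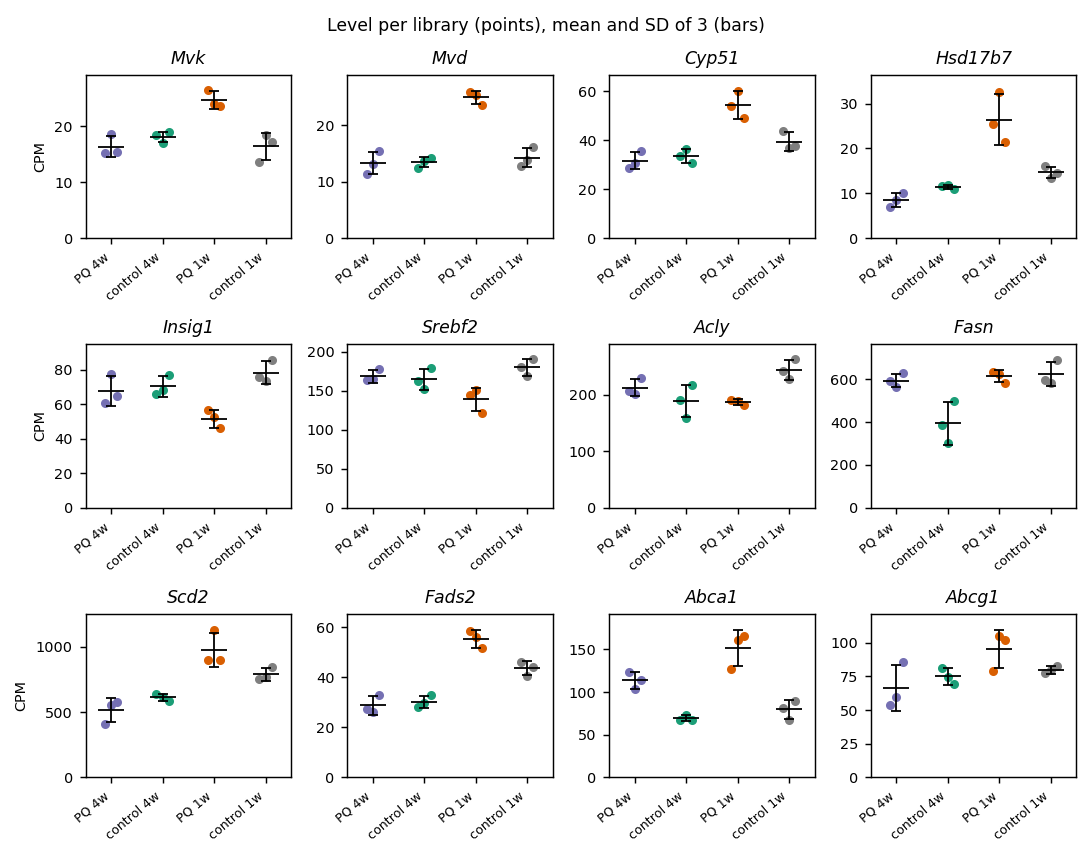
Level in CPM of 12 of the genes in each library (points), with the mean and SD of 3 libraries (bars), for PQ 4w, control 4w, PQ 1w and control 1w. Hsd17b7 measured 21.4 to 32.5 CPM in PQ 1w, against 13.4 to 16.0 CPM in control 1w, while Abca1 was above its controls at both times.

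Among the 103 other lipid genes tested, 4 were higher at 4w (3.88%, beside 5.75% of all genes tested) and 6 were lower (5.83%, beside 6.39%), shares again near the background. All 3 calls among the 18 cholesterol uptake and transport genes were higher. Apoe, the apolipoprotein that carries cholesterol and a marker in the monocyte-derived macrophage list, measured 950.7 to 1395 CPM in PQ 4w, against 469.4 to 518.6 CPM in control 4w (2.17-fold, adjusted p = 0.000782). Cyp7b1, an oxysterol hydroxylase, measured 6.759 to 7.498 CPM in PQ 4w, against 2.469 to 3.938 CPM in control 4w (2.05-fold, adjusted p = 0.0021). Both were separate between groups. Among SREBP processing and LXR genes, Mylip was the 1 called of 11 (0.37 ± 0.10, adjusted p = 0.0268), and the LXR partner Rxrb had -0.11 ± 0.06 (adjusted p = 0.266). Of the 24 other glycerolipid and phospholipid genes 4 were lower, among them the acyltransferases Agpat4 (-0.56 ± 0.09, adjusted p = 0.00295) and Gpat4 (-0.31 ± 0.07, adjusted p = 0.014). The elongase Elovl5 was the 1 called of 23 other fatty acid genes (-0.36 ± 0.10, adjusted p = 0.0304), beside Tecr at -0.24 ± 0.08 (adjusted p = 0.0688). The dehydrogenase Acadvl was the 1 called of 18 oxidation genes (-0.25 ± 0.07, adjusted p = 0.0428), beside the thiolase Acaa1a at -0.22 ± 0.07 (adjusted p = 0.063). None of the 9 genes tested from the list of other sterol synthesis enzymes was called. In that list Dhdds, which makes dolichol precursors and not sterols, had an effect of -0.15 ± 0.06 (adjusted p = 0.113). Marker sums at 4w were 1832 to 2499 CPM in PQ 4w, against 962.8 to 1085 CPM in control 4w for monocyte-derived macrophages, with 11 of 14 higher. They were 229.4 to 304.4 CPM in PQ 4w, against 183.6 to 205.8 CPM in control 4w for dividing cells, with 7 of 18 higher. For alveolar macrophages they overlapped, at 644.7 to 845.7 CPM in PQ 4w, against 737.5 to 801.6 CPM in control 4w, with 2 higher and 3 lower of 14. For type 2 epithelium they were 30490 to 32490 CPM in PQ 4w, against 26950 to 29610 CPM in control 4w, with 3 of 14 higher. Adipocyte sums were 104.8 to 146.9 CPM in PQ 4w, against 140 to 185.3 CPM in control 4w, with 0 of 10 called. The part of these cell types in Abca1, Apoe and Fasn was not tested.

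The effect of paraquat at 4w was compared directly with the effect at 1w in 1 model, as a difference of log2 effects (4w minus 1w). It was called for 10 of the 34 genes (29.4%), beside 32.0% of all genes tested. The difference was negative for 8 (23.5%), beside 17.9%, and positive for 2 (5.88%), beside 14.1%. Over the 16 sterol enzymes 6 were called, all 6 negative, with a median difference of -0.37, beside -0.01 over all genes tested. The 10 differences were -1.34 for Hsd17b7, -0.89 for Mvd, -0.79 for Mvk, -0.62 for Scd2, -0.61 for Cyp51, -0.55 for Dhcr7, -0.48 for Fads2, -0.43 for Fdft1, 0.49 for Acly and 0.49 for Insig1. For Hsd17b7 the effects were -0.50 at 4w and 0.84 at 1w (adjusted p of the difference = 0.00107), for Mvd -0.09 and 0.80 (0.00264), and for Insig1 -0.12 and -0.61 (0.0374). Hsd17b7, Mvd, Mvk, Cyp51 and Dhcr7 kept the call in all 20 alternative settings of this comparison. Without PQ 4w replicate 3 the differences for Fdps (-0.65, adjusted p = 0.0205) and Abcg1 (-0.73, adjusted p = 0.00338) were called as well, and those for Fdft1 (adjusted p = 0.064) and Acly (0.0529) were not. With library totals in place of TMM factors, 12 of the 34 genes were called, 5 positive and 7 negative. Of all genes tested, 2704 were then called positive and 2355 negative, against 2250 and 2842 with TMM factors. In the main fit neither Abca1 (-0.27 ± 0.15, adjusted p = 0.193) nor Fasn (0.55 ± 0.21, adjusted p = 0.0599) was called. The difference for Fasn was called in 6 of the 20 alternative settings. That for Srebf2 (0.34, adjusted p = 0.0608 in the main fit) was called in 8 of them. All 18 dividing cell markers were negative in the main fit of this difference, and 10 of 14 type 2 epithelium markers were positive. The part of these markers in the differences was not tested.

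Between the times, the treated lungs differed in most of the genes. In PQ 4w against PQ 1w 23 of 34 genes (67.6%) were called, beside 54.5% of all genes tested, 21 lower (61.8%), beside 27.8%, and 2 higher (5.88%), beside 26.7%. All 6 genes of the mevalonate arm, 7 of 10 from squalene to cholesterol, all 6 desaturases and elongases and both efflux transporters were lower in PQ 4w. Elovl1 lost its call in 12 of 21 alternative settings, Elovl6 in 11, Fads1 in 8, Msmo1 in 6 and Idi1 in 2. Their adjusted p in the main fit was 0.0392, 0.0415, 0.0244, 0.0253 and 0.0159, in that order. With library totals in place of TMM factors, 17 of the 34 genes were called lower and 3 higher. Of all genes tested, 3645 were then called lower and 4974 higher, against 4430 and 4254 with TMM factors. With TMM factors, the median log2 effect was -0.40 over the 34 genes and 0.004 over all genes tested. The difference was -1.70 ± 0.16 for Hsd17b7 (3.26-fold lower, adjusted p = 5.1e-06), with 7.04 to 9.97 CPM in PQ 4w, against 21.4 to 32.5 CPM in PQ 1w. It was -1.02 ± 0.10 for Fads2, -0.99 ± 0.13 for Scd2, -0.98 ± 0.12 for Mvd and -0.96 ± 0.12 for Scd1. Scd1 measured 1095, 1205 and 1278 CPM in PQ 4w, against 1947, 2534 and 2160 CPM in PQ 1w. These 5 genes were separate between the times. Abca1 was lower by -0.48 ± 0.11 and Abcg1 by -0.60 ± 0.15, though Abca1 stayed above its own controls at both times. Acacb (0.56 ± 0.13, adjusted p = 0.00325) and Insig1 (0.32 ± 0.12, adjusted p = 0.0311) were higher in PQ 4w, and Insig1 lost the call without PQ 1w replicate 2 or 3 or PQ 4w replicate 2 (adjusted p = 0.062 to 0.167). Without PQ 4w replicate 1 the calls of Idi1, Msmo1, Elovl1, Elovl6 and Fads1 were lost (adjusted p = 0.0547 to 0.152), and without PQ 1w replicate 1 they were lost as well (0.0587 to 0.0915). Without PQ 4w replicate 3, Acaca (-0.30, adjusted p = 0.0194) and Lpcat1 (-0.31, adjusted p = 0.0397) were called lower and Elovl6 was not called (adjusted p = 0.0833). Dividing cell markers summed to 229.4 to 304.4 CPM in PQ 4w, against 1011 to 1148 CPM in PQ 1w, with 18 of 18 lower; their part in these differences was not tested.

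Saline lungs also differed between the times. In control 4w against control 1w 6 of 34 genes (17.6%) were called, beside 10.1% of all genes tested, all 6 lower, beside 4.20%, and none higher, beside 5.90%. They were Acly (-0.38 ± 0.10), Acaca (-0.52 ± 0.09), Fasn (-0.67 ± 0.15), Scd1 (-0.67 ± 0.12), Fads2 (-0.54 ± 0.10) and Lpcat1 (-0.43 ± 0.11), with adjusted p between 0.0139 and 0.0426. Fasn measured 386, 301 and 499 CPM in control 4w, against 599, 585 and 689 CPM in control 1w. Scd1 measured 1335, 1072 and 1314 CPM in control 4w, against 2017, 1871 and 2016 CPM in control 1w. The times were separate for both genes. None of the 16 sterol enzymes was called. Of the 21 genes called lower in PQ 4w than in PQ 1w, 2 were also called lower in control 4w than in control 1w. Called or not, 28 of the 34 effects in saline lungs were below 0. Their median was -0.17 over the 34 genes and -0.16 over the sterol enzymes, beside 0.01 over all genes tested. The direct test of the difference between the times was called negative for 8 of the 34 genes. Scd1 kept its call in every setting tried. Without control 1w replicate 3 or control 4w replicate 2 it was the only gene of the 34 called. All genes called were then 139 and 123, against 1609 with every library. Without control 1w replicate 1 or control 4w replicate 1 there were 3 of the 34, beside 337 and 678 of all genes. Without PQ 4w replicate 3, which enters through the shared spread, Dgat2 was called higher in control 4w (0.56, adjusted p = 0.0493). Dividing cell markers were lower in control 4w for 15 of 18 and cardiac muscle markers higher for 7 of 8, with sums of 601 to 1734 CPM in control 4w and 57.49 to 321.7 CPM in control 1w. The labels give no processing batch, so time and any batch that goes with it cannot be told apart. Libraries of both times are labelled as 8 weeks of age, so any age difference cannot be told apart from time either.

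**Figure D5:**
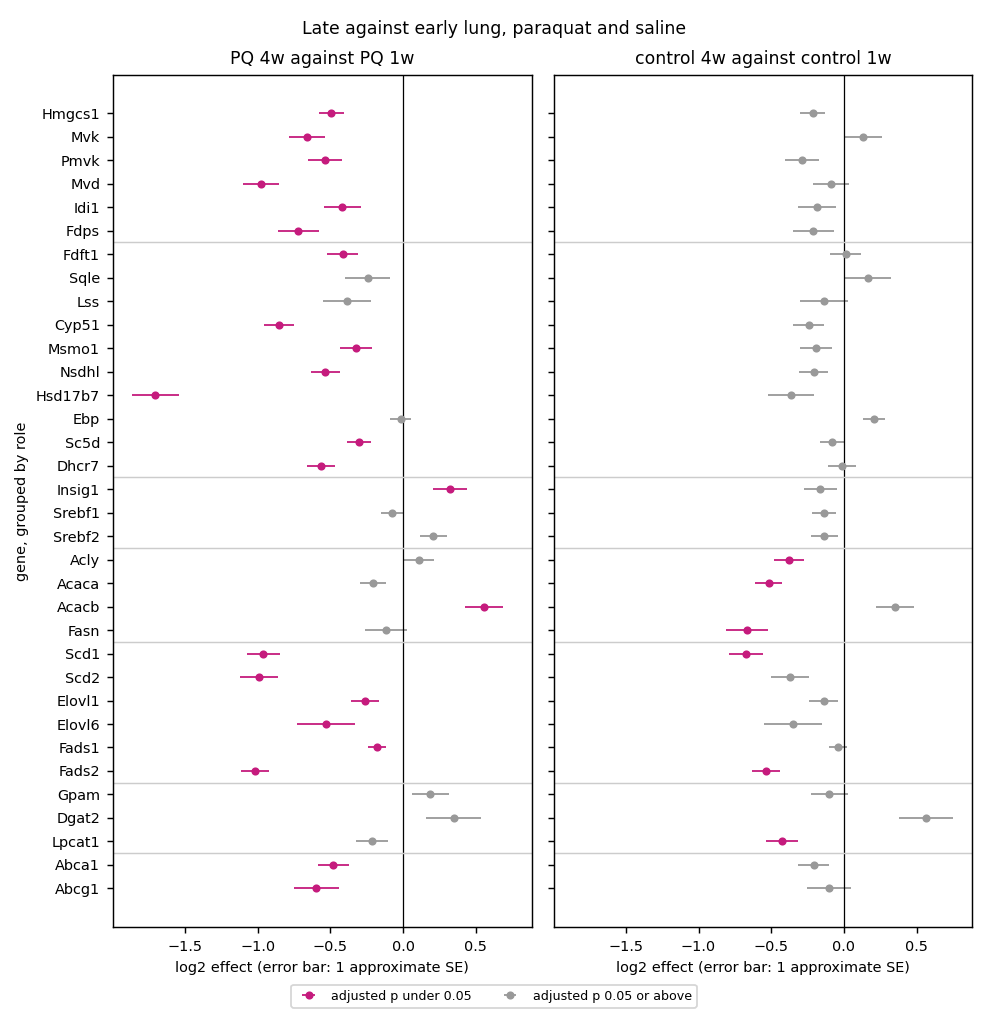
Log2 effect (no unit) of 4w against 1w for each gene in paraquat lungs (left) and saline lungs (right), with bars of 1 approximate SE and pink for an adjusted p under 0.05. In paraquat lungs 21 genes were called lower and 2 higher, and in saline lungs 6 were called lower and none higher.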

How the data were processed

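RNA from homogenised lung was sequenced on a BGISEQ 500 and sequencing was limited to RNA with an integrity number (RIN) over 7.0 and a ratio of the 28S to the 18S ribosomal band over 1.0, per the labels' protocols. The submitters' processing notes name HISAT, RSEM 1.2.12 and the mouse build mm10, and the sources used here do not give further settings. Each deposited table gives, per gene, the transcript length, the RSEM expected count and the FPKM value, as the authors deposited them per the file headers. A combined table was not used here.

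Expected counts were rounded and fitted with edgeR 4.0.16 (quasi-likelihood F-test, TMM factors 0.974 to 1.06, filterByExpr with a minimum count of 10 and a minimum total of 15), over all 12 libraries with 4 group means. Adjusted p-values are Benjamini-Hochberg over 15921 of 20774 genes at a threshold of 0.05, and the standard error is the effect divided by the root of F. CPM divides by the library total without TMM factors. Alternatives were RLE factors, library totals, no filter, only the compared groups, the replicate number as a block, DESeq2 1.42.0, limma 3.58.1 on log2(FPKM + 1) with and without the filter and on log2(FPKM + 0.1), and leaving out each library. The procedure was tested on simulated data in which a small part of the genes changed, in PQ 1w alone. Far more genes were called at 1w in the real data, so that test does not cover scaling under such wide change. Gene positions are from RefSeq GRCm38.p6. Named genes outside the 34 are the 2 with the smallest p in each of 6 pathway lists at each time, of which 1 is not reported here; single values are given for genes past an absolute log2 effect of 0.58 in a paraquat comparison, for regulators and transporters, and for some genes added after their values were seen. Cell type markers came from 9 lists. The genes and lists were chosen with earlier results of these data known. Same-numbered paraquat and saline libraries did not deviate together (correlations -0.35, -0.214 and -0.074 at 1w, and -0.111, 0.152 and -0.179 at 4w), so the numbers were not used as pairs.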

Additional observations from a re-analysis of the deposited data

Results flagged for a closer look

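For 10 genes the effect of paraquat differed between the times in a direct test of the difference (4w minus 1w, edgeR, adjusted p under 0.05). For the sterol enzymes the differences on the log2 scale were -0.79 for Mvk (effects of -0.22 at 4w and 0.58 at 1w), -0.89 for Mvd (-0.09 and 0.80), -0.43 for Fdft1 (-0.09 and 0.34), -0.61 for Cyp51 (-0.16 and 0.46), -1.34 for Hsd17b7 (-0.50 and 0.84) and -0.55 for Dhcr7 (-0.16 and 0.39). For the desaturases they were -0.62 for Scd2 (-0.32 and 0.29) and -0.48 for Fads2 (-0.15 and 0.33). The differences were positive for Insig1, at 0.49 (-0.12 and -0.61), and for Acly, at 0.49 (0.095 and -0.39). The call was lost for Fdft1 without any 1 of 10 libraries, all but PQ 1w replicate 3 and PQ 4w replicate 2 (adjusted p = 0.0545 to 0.121), and in all 8 alternatives that kept every library (adjusted p = 0.0563 to 0.105), so 18 of 20 alternatives lost it. For Insig1 it was lost without PQ 1w replicate 2 or 3, control 1w replicate 1 or 3, PQ 4w replicate 2, or control 4w replicate 1 or 2 (adjusted p = 0.0539 to 0.0947). For Scd2 it was lost without PQ 1w replicate 2, control 1w replicate 1 or control 4w replicate 1 (0.0575 to 0.0611), for Acly without PQ 1w replicate 3, control 1w replicate 3 or PQ 4w replicate 3 (0.0529 to 0.0686), and for Fads2 without PQ 1w replicate 1 or control 4w replicate 3 (0.0516 and 0.0549).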

How the results depend on the processing

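No called effect of the 34 genes changed sign in any of the 21 alternatives. With all libraries kept, every count of called genes among the 34 stayed within 1.5 times its value except at 4w, where 4 became 2 with library totals, 1 with only the compared groups in the fit and 2 with limma on log2(FPKM + 0.1). Genes called among all tested at 4w were 2001, 746 and 1753 in these settings, in that order, against 1932. In control 4w against control 1w they were 441 with limma on log2(FPKM + 1) without the filter, against 1609. The cause of these differences was not tested. Leaving out 1 library gave 12 to 18 of the 34 genes (6704 to 8264 of all genes) in PQ 1w against control 1w, 1 to 5 (641 to 2104) in PQ 4w against control 4w, 7 to 10 (4107 to 5250) for the difference between the times, 18 to 24 (7463 to 8758) in PQ 4w against PQ 1w, and 1 to 7 (123 to 2570) in control 4w against control 1w. The replicate number as a block left 16, 3, 9, 22 and 6 of the 34 genes called in these 5 comparisons (7636, 1646, 4826, 8453 and 1447 of all genes); Pmvk at 4w (adjusted p = 0.0673), the differences for Fdft1 (0.0731) and Insig1 (0.059), and Elovl6 in PQ 4w against PQ 1w (0.055) lost their calls. The fit with only the compared groups was not possible for the difference between the times, which needs all 4 groups. Library totals were similar (17220978 to 18559809). For Elovl6, the gene of lowest level, the approximate SE of the paraquat effect was 0.20 at both times, so small effects could be missed there. Effects above 1 SE could be missed as well: its log2 effect of -0.35 in control 4w against control 1w was not called (adjusted p = 0.27).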

Other observations

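Other cell type markers also differed with paraquat. Of all genes tested, 25.9% were called higher and 22.9% lower at 1w, and 5.75% higher and 6.39% lower at 4w. Markers of club and ciliated airway epithelium summed to 6050 to 7216 CPM in PQ 1w, against 25210 to 34050 CPM in control 1w, with 7 of 10 lower, and to 26860 to 51880 CPM in PQ 4w, against 50740 to 58440 CPM in control 4w, with 1 of 10 lower. Endothelial markers summed to 3442 to 3845 CPM in PQ 1w, against 4726 to 5387 CPM in control 1w, with 6 of 10 lower, and to 3022 to 3997 CPM in PQ 4w, against 5165 to 5259 CPM in control 4w, with 8 lower and 1 higher; this list shares Car4 with the alveolar macrophage list. Markers of alveolar fibroblasts and lipofibroblasts, the lipid-storing cells of the alveolar wall, summed to 2756 to 3389 CPM in PQ 1w, against 4829 to 5310 CPM in control 1w, with 8 lower and 2 higher of 12, and to 4265 to 4748 CPM in PQ 4w, against 4597 to 4801 CPM in control 4w, with 3 lower. Cardiac muscle markers, 0 of 8 called against saline at either time, summed to 162.5 to 1096 CPM in PQ 4w, against 601 to 1734 CPM in control 4w, and to 69.56 to 247.4 CPM in PQ 1w, against 57.49 to 321.7 CPM in control 1w.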
